A study of Mus musculus with 35 samples.

Results

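The genes described here are 10 that encode the MHC class II presentation machinery of the mouse, H2-Aa, H2-Ab1, H2-Eb1, H2-DMa, H2-DMb1, H2-DMb2, H2-Oa, H2-Ob, Cd74 and Ciita, measured by bulk RNA-seq in macrophages (macs) sorted from liver. They were taken by symbol and all 10 were found among the 54735 gene symbols counted. Male C57BL/6J mice carrying no transgene were put on a Western diet (WD), rich in fat and cholesterol with fructose and sucrose in the drinking water, or on a low-fat standard diet (SD) with corn starch, from 5 weeks of age. Live CD45+ F4/80+ CD64+ cells lacking T cell, B cell, NK cell and erythroid surface markers were sorted into resident Kupffer cells (ResKCs, CLEC4F+ TIM4+), monocyte-derived Kupffer cells (moKCs, CLEC4F+ TIM4-) and CLEC4F- macs.

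The 35 samples fall into 6 groups, namely ResKCs after 12 weeks on the SD (7 samples) or the WD (5) and after 24 weeks on the SD (6) or the WD (6), and moKCs (5) and CLEC4F- macs (6) after 24 weeks on the WD. For the 5 ResKC samples on the WD for 12 weeks, the sample titles and descriptions name the WD while another label field names the standard diet, and the titles were followed. moKCs and CLEC4F- macs have no SD group, so their comparisons are between populations within the WD. The labels do not tie samples to separate animals, so p-values measure the spread between these samples, part of which may be technical.

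MHC class II molecules are alpha-beta dimers that carry peptides from endocytosed protein to the surface for CD4+ T cells. H2-Aa and H2-Ab1 encode the chains of I-A, and H2-Eb1 encodes the beta chain of I-E, whose alpha chain is not made in C57BL/6 mice because its gene is defective. The invariant chain, encoded by Cd74, escorts new dimers to the endosome and blocks the groove. There H2-DM, of H2-DMa with an H2-DMb chain, exchanges the last invariant chain fragment for peptide, and H2-DO, of H2-Oa and H2-Ob, holds H2-DM back and is best known from B cells. Ciita encodes the coactivator that does not bind DNA itself but docks on the factors seated at the X and Y boxes of class II promoters. Kupffer cells, the sessile macs of the liver sinusoids, express class II, and interferon-gamma is the classical signal that raises Ciita in macs.

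Class II promoters are known for shared X and Y boxes, which is why a stretch of the proximal promoter is printed for the members that have an entry in the RefSeq promoter table (build GRCm38.p6). An entry was found for 7 members, with 2 for H2-DMa, and none for H2-Ab1, Cd74 and Ciita. The search was for ACNGATG as the core of the X box and ATTGG as the core of the Y box, on both strands, in 300 bases from 250 before to 50 after the annotated start. The pair with the X letters first and the Y letters within 40 bases occurred in 3 members, H2-Eb1, H2-DMb1 and H2-DMb2, and in 0.298% of all 32851 promoters in the table. The X letters alone were in 9.85% and the Y letters alone in 37.4% of all promoters. The 3 windows with the pair run from 140 to 21 bases before the start, 5′ to 3′, with the matching letters in capitals.
H2-Eb1, chr17:34305727-34305846, plus strand: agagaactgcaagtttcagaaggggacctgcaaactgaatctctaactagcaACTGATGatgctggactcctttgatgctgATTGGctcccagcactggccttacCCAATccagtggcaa
H2-DMb1, chr17:34153051-34153170, plus strand: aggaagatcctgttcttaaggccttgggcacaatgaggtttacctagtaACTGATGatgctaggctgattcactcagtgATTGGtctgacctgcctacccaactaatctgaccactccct
H2-DMb2, chr17:34145109-34145228, plus strand: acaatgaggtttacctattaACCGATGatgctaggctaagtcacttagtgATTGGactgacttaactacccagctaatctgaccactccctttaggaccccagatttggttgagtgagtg
From the start of the X letters to the start of the Y letters is 29 bases in H2-Eb1 and 30 in both H2-DMb genes. The same window in H2-Aa, encoding the I-A alpha chain, and in the 2 H2-DO genes is shown as well. In what follows the H2-Aa transcript followed that of H2-Eb1 closely across samples and the H2-DO transcripts less closely, and no link to these letters was tested.
H2-Aa, chr17:34287844-34287963, minus strand: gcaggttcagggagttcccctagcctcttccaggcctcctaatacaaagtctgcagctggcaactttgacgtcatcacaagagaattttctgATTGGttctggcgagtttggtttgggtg
H2-Oa, chr17:34092239-34092358, plus strand: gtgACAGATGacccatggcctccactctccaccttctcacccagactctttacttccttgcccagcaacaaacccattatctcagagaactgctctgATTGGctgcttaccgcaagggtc
H2-Ob, chr17:34238765-34238884, plus strand: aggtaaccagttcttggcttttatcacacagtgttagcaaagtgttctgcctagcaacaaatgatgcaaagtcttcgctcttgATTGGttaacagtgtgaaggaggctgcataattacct
Each of these 3 windows holds the Y letters with no X letters in the 40 bases before them, and in H2-Oa the X letters lie farther upstream. The search took exact letters only, so a box that differs from them in any letter is not marked. Missing capitals thus do not show that a box is absent. A match of letters is a description of the sequence and not a measured binding site.

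In the GRCm38 annotation, 8 of the 10 genes lie on chromosome 17 between 34092340 (the start of H2-Oa) and 34316674 (the end of H2-Eb1). Cd74 lies on chromosome 18 from 60803848 to 60812652 and Ciita on chromosome 16 from 10480059 to 10528418. H2-DMb1 and H2-DMb2 are near-identical copies, with 93.9% identity over 1255 aligned transcript bases, and 18.8% of the 75-base windows of the H2-DMb2 transcript occur unchanged in H2-DMb1. How reads that fit both were counted is not given in the sources used here, so their separate levels are uncertain.

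Total counts lay between 11568590 and 15163845 per sample, at which 3 counts correspond to 0.198 to 0.259 CPM (counts per 1000000 counts of the sample). Levels given per sample below are CPM after TMM scaling, which corrects each total for differences in RNA composition between samples. All 10 members were among the 13421 genes with over 1 CPM in at least 5 samples, and 9 of them were over 1 CPM in all 35 samples. H2-Oa was over 1 CPM in 11 samples, 5 of the 6 CLEC4F- samples and 6 of the other 29. The sorted identities were visible in the RNA: mean Clec4f, the Kupffer cell lectin used in the sort, was 12622 to 15105 CPM in the ResKC groups, 9844 in moKCs and 1718 in CLEC4F- macs. Timd4, which encodes TIM4, averaged 732 to 1094 CPM in the ResKC groups and 12.5 in moKCs. CLEC4F- sample 4 stood apart, with Clec4f at 5488 CPM where the other 5 samples had 294 to 1539, and CLEC4F- sample 1 stood apart with the most B cell and dendritic cell (DC) transcripts, as given below. In bulk RNA, fewer cells of a kind and less RNA per cell cannot be told apart.

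Class II transcripts were abundant in every group, and Cd74 was the most abundant of the 10 in each. Per kilobase of transcript, mean levels in the SD ResKCs at 24 weeks were 7582 CPM per kb for Cd74, 3871 for H2-Ab1, 2836 for H2-Aa and 1253 for H2-Eb1. The peptide-exchange genes followed at 306 CPM per kb for H2-DMa and 246 for H2-DMb1. Ciita (10.8 CPM per kb), H2-DMb2 (8.29), H2-Ob (2.82) and H2-Oa (0.566) were the lowest. The transcript of the coactivator was thus below those of the chain genes, Cd74, H2-DMa and H2-DMb1 and above those of the other 3 members. In CLEC4F- macs the order was the same at the top but H2-DMb1 (372 CPM per kb) was above H2-DMa (312) and H2-Oa (5.84) above H2-Ob (4.17).

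The 3 classical chain genes had 1 pattern: highest in CLEC4F- macs, then moKCs, and lowest in ResKCs of mice on the WD for 24 weeks. H2-Aa in SD ResKCs ran from 1827 to 5014 CPM with a median of 2838 at 12 weeks, and from 1910 to 4558 with a median of 3307 at 24 weeks. In WD ResKCs H2-Aa was 1719, 2354, 2080, 4098 and 1385 CPM in samples 1 to 5 at 12 weeks, and at 24 weeks the lowest, median and highest of 6 samples were 1001, 1406 and 2145. The 2 SD groups overlapped across almost their whole range, and of the 12-week WD samples only sample 4 was in the upper part of it. H2-Aa in moKCs was 3294, 3863, 3035, 4933 and 3297 CPM in samples 1 to 5. In CLEC4F- macs it ran from 4005 to 6990 CPM with a median of 5665. Ordered by mean, CLEC4F- macs (5542 ± 972 CPM, SD, n = 6) were followed by moKCs (3684 ± 761, n = 5), SD ResKCs at 24 weeks (3199 ± 917, n = 6) and 12 weeks (2985 ± 1119, n = 7), and WD ResKCs at 12 weeks (2327 ± 1055, n = 5) and 24 weeks (1517 ± 397, n = 6). Every neighbouring pair in that order overlapped in single samples.

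H2-Ab1, the partner chain, had the lowest, median and highest values of 2720, 4327 and 8002 CPM in SD ResKCs at 12 weeks and 2529, 4707 and 7467 at 24 weeks. In WD ResKCs it was 2585, 3573, 3078, 6489 and 2146 CPM at 12 weeks, and 1279, 1926 and 3231 (lowest, median and highest) at 24 weeks. It was 5495, 6395, 4636, 7392 and 5078 CPM in moKCs, and 6290, 9001 and 11867 (lowest, median and highest) in CLEC4F- macs. The same samples were high and low as for H2-Aa: sample 4 of the WD ResKCs at 12 weeks was again the highest of its group and sample 5 the lowest. The ratio of H2-Ab1 to H2-Aa per kilobase had group medians of only 1.28 to 1.49.

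H2-Eb1, whose product has no partner in this strain, was still abundant, with means of 1976 ± 854 CPM (SD, n = 7) and 2091 ± 740 (n = 6) in SD ResKCs at 12 and 24 weeks. In WD ResKCs the means were 1512 ± 810 CPM (n = 5) and 994 ± 300 (n = 6). moKCs had 2761 ± 672 CPM (n = 5) and CLEC4F- macs 4546 ± 824 (n = 6). Of the loci listed beside these members, H2-Ea-ps, the defective I-E alpha gene, was at 0 counts in all samples but 1 moKC sample with 0.0732 CPM, H2-Pb was at 0 in all 35, and H2-Eb2 reached at most 3.33 CPM. A count of 0 allows up to 0.259 CPM at this depth, from counting error alone.

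**Figure D1:**
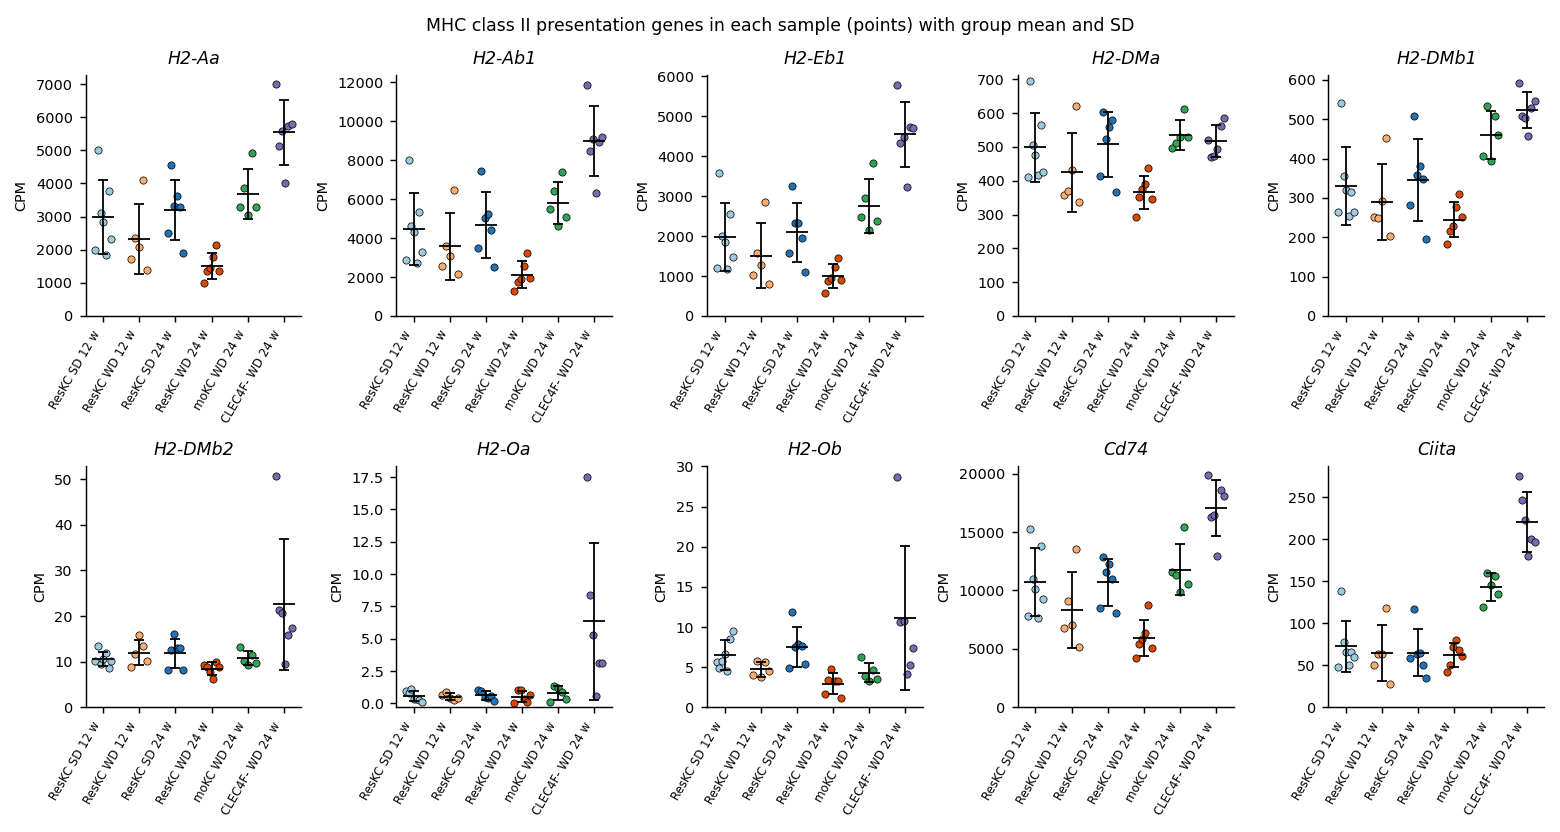
CPM of each of the 10 genes (1 panel per gene, linear axis from 0) in every sample of the 6 groups, with points for samples and bars for the mean ± SD. H2-Aa, H2-Ab1, H2-Eb1 and Cd74 share 1 profile, highest in CLEC4F- macs and lowest in WD ResKCs at 24 weeks. In the H2-Oa and H2-Ob panels the spread within CLEC4F- macs, from 0.584 to 17.5 CPM and from 4.16 to 28.7 CPM, is the main feature.

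Cd74, the invariant chain, followed the classical chains over a smaller range. It was 7655 to 15284 CPM in SD ResKCs at 12 weeks (median 10087), 8051 to 12866 at 24 weeks (median 11257), and 4209 to 8773 in WD ResKCs at 24 weeks (median 5620). In moKCs it was 11614, 11312, 9831, 15451 and 10546 CPM, and in CLEC4F- macs 12986 to 19880 with a median of 17266. A single one of the 6 WD samples at 24 weeks, with 8773 CPM, reached into the SD range at that time. Summed over the 10 genes, WD ResKC samples at 24 weeks had 7601 to 16418 CPM and CLEC4F- samples 27654 to 46008.

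H2-DMa and H2-DMb1 varied less between groups. H2-DMa means stayed between 365 ± 48.2 CPM (SD, n = 6) in ResKCs of the 24-week WD and 536 ± 44.8 (n = 5) in moKCs, with CLEC4F- macs at 517 ± 47.4 (n = 6). H2-DMb1 ranged more widely, from 245 ± 44.9 CPM (n = 6) in WD ResKCs at 24 weeks to 523 ± 45.2 (n = 6) in CLEC4F- macs. H2-DMb2 was at 6.17 to 16 CPM in every ResKC and moKC sample, and at 50.7, 21.4, 20.6, 9.57, 15.9 and 17.3 CPM in CLEC4F- samples 1 to 6.

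H2-Ob, the H2-DO beta chain, was at 4.52 to 11.9 CPM in the SD ResKCs of both times, at 4.06, 5.79, 3.77, 5.61 and 4.47 in WD ResKCs at 12 weeks, and at 1.18 to 4.83 at 24 weeks. In moKCs it was 6.26, 3.84, 3.3, 4.69 and 3.51 CPM. In CLEC4F- samples 1 to 6 it was 28.7, 10.6, 10.7, 4.16, 5.24 and 7.37 CPM. Of its partner H2-Oa, 6 of the 29 samples outside the CLEC4F- macs had 3 counts or fewer, whereas CLEC4F- samples 1 to 6 had 17.5, 8.41, 5.3, 0.584, 3.15 and 3.12 CPM. In both H2-DO genes CLEC4F- sample 1 was the highest and sample 4 the lowest of the group, and sample 4 lay within the ResKC range.

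Ciita, the coactivator, had similar medians in all ResKC groups and higher ones in moKCs and CLEC4F- macs. Its lowest, median and highest values were 48.4, 65.7 and 138 CPM in SD ResKCs at 12 weeks, 34.7, 61.1 and 117 in SD ResKCs at 24 weeks, and 41.4, 64.6 and 80 in WD ResKCs at 24 weeks. WD ResKCs at 12 weeks had 49.9, 63.1, 63, 118 and 27.8 CPM in samples 1 to 5. moKCs had 119, 160, 145, 156 and 135 CPM and CLEC4F- macs 180 to 275 with a median of 212. All 4 ResKC groups overlapped, and every CLEC4F- sample was above every moKC sample.

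The first comparison was of the diets in ResKCs at 24 weeks. Class II transcripts were lower on the WD: H2-Aa, H2-Ab1 and H2-Eb1 were 2.1- to 2.22-fold and Cd74 1.8-fold lower, while Ciita averaged 62.1 CPM on the WD and 64.9 on the SD. By the quasi-likelihood test of edgeR, adjusted over all genes after Benjamini and Hochberg, 6 of the 10 members fell (adjusted p under 0.05) and none rose, where 3.87% of all tested genes fell and 4.84% rose. The log2 fold change was -1.08 ± 0.24 (SE) for H2-Aa (adjusted p = 0.00462), -1.15 ± 0.27 for H2-Ab1 (0.00646), -1.07 ± 0.28 for H2-Eb1 (0.0144) and -0.85 ± 0.20 for Cd74 (0.00608). H2-DMa, the alpha chain of the peptide exchanger, fell 1.39-fold (adjusted p = 0.0265), and leaving out any 1 of 4 samples (SD sample 2, 4 or 5 or WD sample 1) took its adjusted p to between 0.0578 and 0.0713. H2-Ob, the H2-DO beta chain, fell 2.56-fold (adjusted p = 0.0139) and was the only member with all 6 WD samples (1.18 to 4.83 CPM) below all 6 SD samples (4.91 to 11.9 CPM).

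The other 4 members did not pass. H2-DMb1 had a log2 fold change of -0.49 (adjusted p = 0.0921), H2-DMb2 of -0.48 (0.22) and H2-Oa of -0.22 (0.885). That of Ciita was -0.06 ± 0.26 (0.916). The median over the 10 members was -0.67 on the log2 scale, beside 0.00 over all genes tested. With scaling by library size alone, the whole-table split of rising and falling genes moved from 650 and 519 to 1139 and 340, while all 6 of these members were still called lower.

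Transcripts of a stress response and of other cells moved with this result. The summed level of 10 immediate-early and heat-shock genes, which respond within minutes to tissue digestion, was 1863 to 10184 CPM in the 6 SD samples (median 6734) and 854 to 3843 in the 6 WD samples (median 1607). Of these 10 genes, 6 also fell on the WD, Fos from a mean of 2239 to 474 CPM. With their mean level as a covariate, an alternative fixed with the other tests, the fold changes of the 6 members were smaller and 0 of 10 members passed. H2-Aa was at -0.81 on the log2 scale (adjusted p = 0.0682, edgeR), H2-Ab1 at -0.86 (0.0779), Cd74 at -0.60 (0.093) and H2-Ob at -1.19 (0.0921). Fewer genes passed over the whole table too: 650 rising and 519 falling became 252 and 224.  Over the 24 ResKC samples Pearson's r between the mean log2 CPM of the immediate-early genes and that of H2-Aa, H2-Ab1, H2-Eb1 and Cd74 was 0.553, as a description, since both values come from the same library. The paper, from single-cell data, reports Fos as lowered on the WD in both CD45+ cells and other liver cells, without examining its relevance. Whether the immediate-early genes differed here through digestion, the diet or both was not tested. Their part in the class II difference was not tested beyond this covariate.

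**Figure D2:**
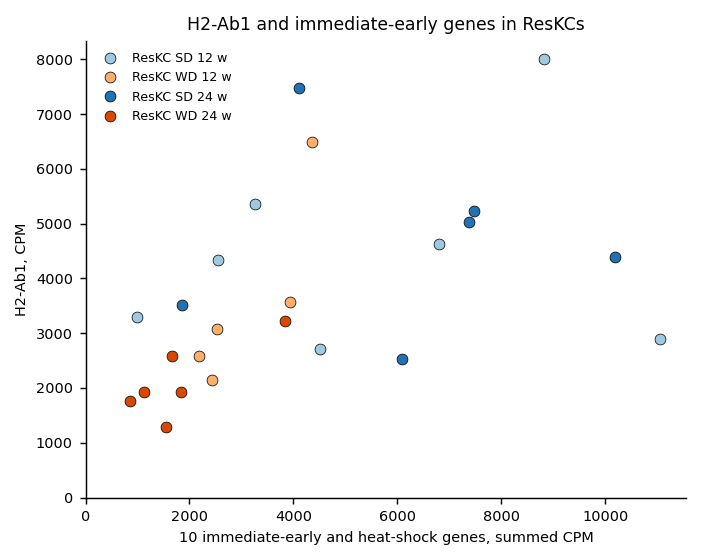
H2-Ab1 (CPM, vertical axis) against the summed CPM of 10 immediate-early and heat-shock genes (horizontal axis) in the 24 ResKC samples, 1 point per sample and 1 colour per group. The WD samples at 24 weeks hold the lower left corner, with H2-Ab1 at 1279 to 3231 CPM and sums of 854 to 3843 CPM, and the SD samples at 24 weeks lie above or to the right.

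Markers of monocytes and recruited macs were higher on the WD in the same samples, at a summed 39.5 to 146 CPM for 5 genes against 7.43 to 20.6 on the SD. Of these 5, 3 rose: Itgax, an integrin subunit, from a mean of 6.1 to 37.6 CPM, Spp1, encoding osteopontin, from 1.95 to 14.8, and the chemokine receptor gene Cx3cr1 from 1.93 to 10.8. In CLEC4F- macs the same sum was 887 to 2431 CPM. Of 10 DC markers 1 rose, Clec9a, from a mean of 1.71 to 4.53 CPM, and none fell. The median log2 fold change of the 10 was -0.115, and their summed CPM was 108 to 152 on the WD and 145 to 238 on the SD. The part of such cells in the lower class II levels was not tested.

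B cells express H2-Ob, so their markers were read in the same samples. The summed CPM of 8 B cell markers at 24 weeks was 21.2 to 56.4 on the SD and 11.2 to 30.6 on the WD. Of 7 such markers tested, 1 fell, Cd79b, a subunit of the B cell receptor, from a mean of 32.6 to 13.4 CPM (log2 fold change -1.29, adjusted p = 0.0078). The median log2 fold change of the 7 was 0.41, against the direction of the sum. With the mean log2 level of the B cell markers as a covariate, H2-Ob was at -1.50 (adjusted p = 0.00155, edgeR). This alternative was added after seeing the data. A mean of log2 levels weighs each marker alike and need not follow the fall in the sum. The part of B cells in the H2-Ob difference was thus not tested. With only the samples whose alignment files were named in the first of the 2 forms found in the count files (all 6 SD samples but 3 of the WD samples), 4 of the 6 members fell.

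At 12 weeks, the diet comparison called no member. Log2 fold changes ran from -0.45 to 0.17 with a median of -0.28, beside 0.02 over all genes, and 0 of 10 members had an unadjusted p under 0.05 in edgeR; DESeq2 and limma-voom also called 0. Only 0.0373% of all genes were called in either direction. Whether diet acted differently at 24 than at 12 weeks was tested as an interaction in edgeR, which called no member (background 0.283%). Unadjusted p-values under 0.05 were found for 2 members, H2-Aa at -0.72 on the log2 scale and H2-Ab1 at -0.83. The lowest adjusted p among the members was 0.311, and DESeq2 and voom called 0 of 10. A diet effect at 24 weeks and none called at 12 weeks is thus not shown to be a difference between the times.

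Time alone called no member either. In SD ResKCs 24 against 12 weeks called 0 of 10 members (0 at an unadjusted p under 0.05) and 0% of all genes in edgeR. In WD ResKCs 0 of 10 members were called (background 3.26%), and 4 had an unadjusted p under 0.05, all lower at 24 weeks: H2-Ab1 at -0.76 on the log2 scale (adjusted p = 0.119), H2-Aa at -0.62, H2-Eb1 at -0.61 and Cd74 at -0.49. DESeq2 and voom called 0 of the 10 members over time on either diet.

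The second set of comparisons was between the 3 populations on the WD at 24 weeks, where class II was higher in both recruited populations. Against ResKCs, moKCs had 7 of 10 members higher and none lower, where 0.991% of all tested genes were higher and 2% lower. H2-Aa was 2.43-fold higher (log2 fold change 1.28 ± 0.25 SE, adjusted p = 0.00206, edgeR), H2-Ab1 2.74-fold (0.00161), H2-Eb1 2.78-fold (0.00231) and Cd74 1.98-fold (0.00373). H2-DMb1 was 1.88-fold higher (adjusted p = 0.00563) and H2-DMa 1.47-fold (0.0241). Ciita, the coactivator, was 2.3-fold higher (1.20 ± 0.27, adjusted p = 0.00937). For these 7 genes all 5 moKC samples were above all 6 ResKC samples. H2-DMb2 (0.35 on the log2 scale, adjusted p = 0.556), H2-Oa (0.55, 0.786) and H2-Ob (0.56, 0.492) did not pass. The median over the members was 0.95, beside 0.02 over all genes tested. Restricting to the samples of the first naming form left 3 members called and to the second form 1, Ciita, with fewer samples in each.

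CLEC4F- macs against ResKCs had all 10 members higher, where 16.1% of all tested genes were higher and 17% lower. H2-Aa was 3.65-fold higher (log2 fold change 1.87 ± 0.24 SE, adjusted p = 2.5e-07, edgeR), H2-Ab1 4.24-fold (2.7e-07), H2-Eb1 4.57-fold (2.7e-07) and Cd74 2.87-fold (2.3e-07). Ciita was 3.55-fold higher (1.83 ± 0.27, adjusted p = 1.6e-06). H2-DMb1 rose 2.14-fold and H2-DMa, the least changed, 1.42-fold (adjusted p = 0.0043). In these 7 genes no sample of the groups overlapped. H2-Oa was 11.8-fold higher (3.56 ± 0.68, adjusted p = 9.7e-05), H2-Ob 3.79-fold (5.2e-05) and H2-DMb2 2.66-fold (2.4e-05), with overlapping samples. The members' median was 1.85, beside 0.02 over all genes. Scaled by library size alone, the median of all genes in this comparison moved to 0.14 and the whole-table split from 2155 higher and 2278 lower to 3268 and 1631, and all 10 members were still higher.

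**Figure D3:**
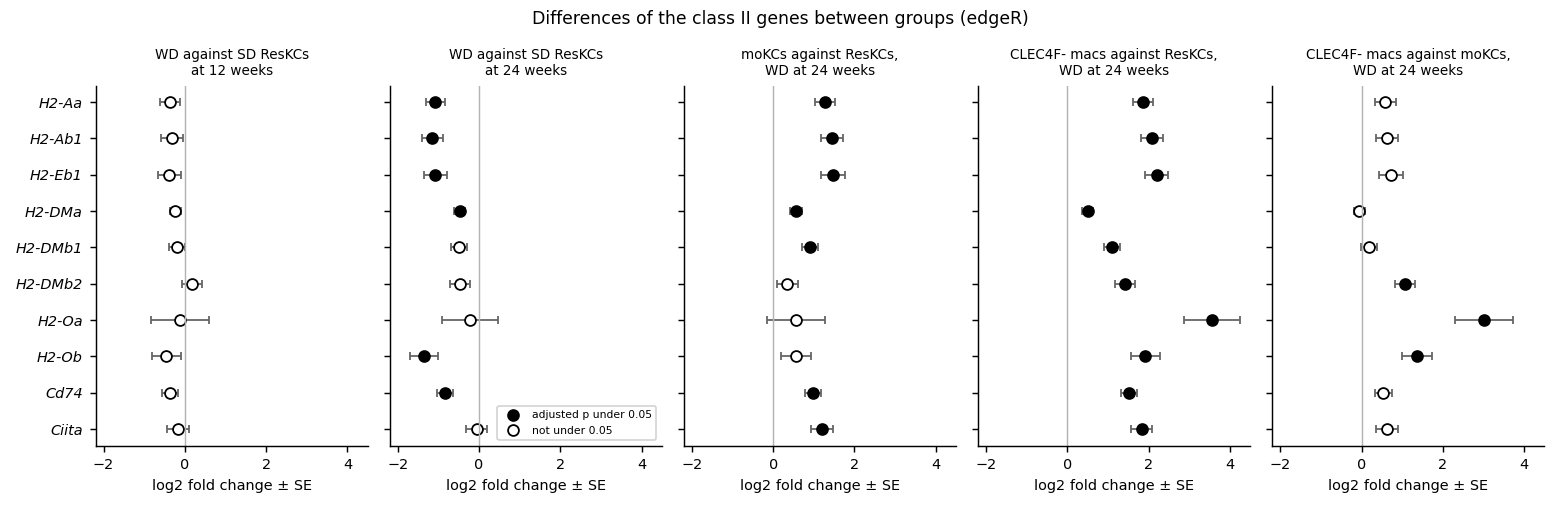
Log2 fold change (horizontal axis) of the 10 genes in 5 comparisons, with bars for ± SE; filled points have an adjusted p under 0.05 in edgeR over all genes. The chain genes lie near -1 in the 24-week diet comparison and between 1 and 2.2 in both comparisons with ResKCs, and Ciita lies near 0 in the first and at 1.20 and 1.83 in the others.

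Between CLEC4F- macs and moKCs, the genes called were 3 of low level. H2-Oa was 8.07-fold higher in CLEC4F- macs (log2 fold change 3.01 ± 0.71 SE, adjusted p = 0.00244, edgeR), H2-DMb2 2.1-fold (1.07 ± 0.26, 0.00303) and H2-Ob 2.57-fold (1.36 ± 0.36, 0.00753), so 3 of 10 members were higher and none lower, where 7.09% of all genes were higher and 9.34% lower. The chain genes did not pass, with H2-Aa at 0.59 on the log2 scale (adjusted p = 0.112), H2-Ab1 at 0.63 (0.128), H2-Eb1 at 0.72 (0.0937) and Cd74 at 0.54 (0.0701). H2-DMa was at -0.05 (0.878) and H2-DMb1 at 0.18 (0.619). Ciita was at 0.63 (0.122), although the samples of the 2 groups did not overlap. The members' median was 0.63, beside -0.01 over all genes. By library size alone the whole-table split moved from 951 higher and 1253 lower to 1478 and 938. Fitted on these groups alone, 6 members were called but not the same ones: H2-Aa (adjusted p = 0.0254), H2-Ab1 (0.0228), H2-Eb1 (0.0152), Cd74 (0.0251) and Ciita (0.00539) were then higher with H2-Oa, and H2-DMb2 (0.0576) and H2-Ob (0.0654) missed the threshold. Which of the members differ between CLEC4F- macs and moKCs thus depends on the groups that set the spread.

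The 3 genes called between CLEC4F- macs and moKCs moved with transcripts of other cell types. Across CLEC4F- samples 1 to 6, Cd79a, a subunit of the B cell receptor, was at 46.4, 7.57, 6.46, 1.90, 4.52 and 5.67 CPM. Ccr7, carried by migratory DCs, was at 85.5, 5.82, 8.21, 1.61, 6.21 and 4.89 CPM, and Cd209a, a lectin of monocyte-derived and type 2 DCs, at 121, 39.4, 43.9, 4.75, 1.94 and 10.4 CPM. So sample 1, highest in H2-Oa, H2-Ob and H2-DMb2, was highest in all of these markers, and sample 4, lowest in the 3 genes, was highest in Clec4f. As sums, 8 B cell markers were at 29.2 to 196 CPM in CLEC4F- macs, 20.7 to 53.8 in moKCs and 11.2 to 30.6 in WD ResKCs at 24 weeks. The sums of 10 DC markers were 131 to 433 CPM in CLEC4F- macs, 120 to 218 in moKCs and 108 to 152 in those ResKCs. The sort left out cells with B cell surface markers, as given above, and took cells with F4/80 and CD64, which most DCs lack or carry weakly.

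Other settings bear on the same genes, and those other than leaving out 1 sample were chosen after seeing these data. Without CLEC4F- sample 1, H2-Ob missed the threshold against moKCs (log2 fold change 0.83, adjusted p = 0.0705, edgeR) while H2-Oa and H2-DMb2 passed. Without samples 1 and 4 all 3 passed, at 2.68 on the log2 scale for H2-Oa, 0.98 for H2-Ob and 0.82 for H2-DMb2. With the mean level of the B cell markers as a covariate none of the 3 passed against moKCs (H2-Oa 1.97, H2-Ob 0.66, H2-DMb2 0.45), nor with that of the DC markers (1.35, 0.41 and 0.06). Against ResKCs the DC covariate left 6 of 10 members called, the chain genes, Cd74, H2-DMb1 and Ciita. H2-Oa (1.48 on the log2 scale, adjusted p = 0.379), H2-Ob (0.71, 0.415), H2-DMb2 (0.13, 0.812) and H2-DMa (0.49, 0.124) did not pass. Of the 10 DC markers, 5 were themselves higher in CLEC4F- macs than in ResKCs and 4 higher than in moKCs. Such a covariate shares variation with the group contrast and can widen its error. Without it H2-DMa was at 0.50 (adjusted p = 0.0043, edgeR), so its call was lost at almost the same fold change. Calls lost with the DC covariate thus cannot tell whether a member follows DC transcripts or the group.

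**Figure D4:**
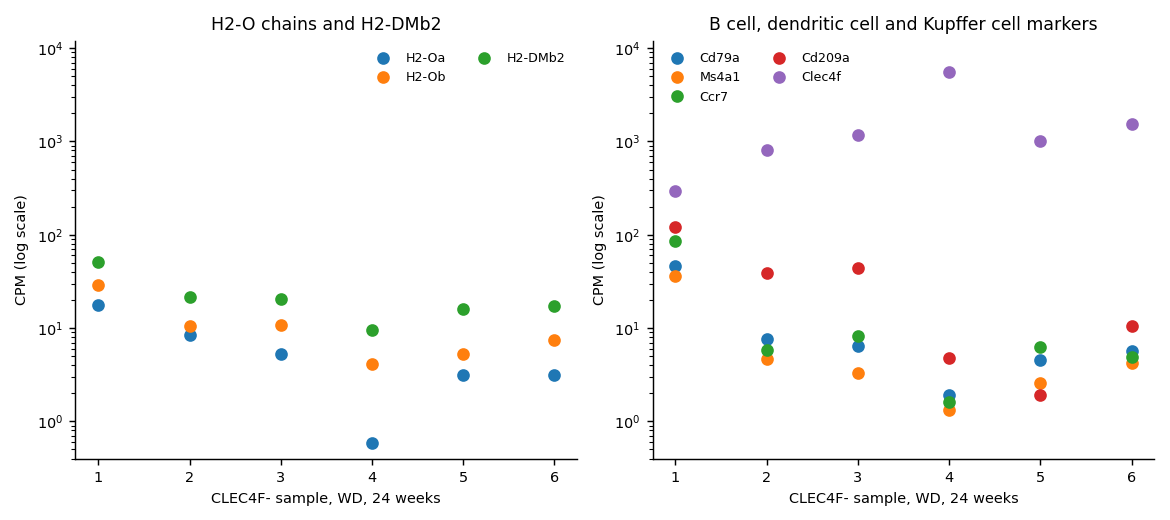
CPM on a log axis in the 6 CLEC4F- samples: on the left H2-Oa, H2-Ob and H2-DMb2, on the right the B cell markers Cd79a and Ms4a1, the DC-associated Ccr7 and Cd209a, and Clec4f. Sample 1 is highest in the 3 class II genes and in the 4 B cell and DC markers and lowest in Clec4f (294 CPM); sample 4 is lowest in H2-Oa (0.584 CPM) and highest in Clec4f (5488 CPM).

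The members also varied together within groups. Over all 35 samples Pearson's r of log2 CPM between H2-Aa and H2-Ab1 was 0.996, and it was 0.991 after subtracting each group's mean; with H2-Eb1 the values were 0.994 and 0.995 and with Cd74 0.988 and 0.968. H2-DMb1 (0.943 and 0.921) and H2-DMa (0.87 and 0.909) followed H2-Aa less closely, H2-DMb2 (0.663 and 0.4), H2-Ob (0.668 and 0.424) and H2-Oa (0.593 and 0.242) least, and H2-Oa is near its counting floor in most samples. These are descriptions over samples whose genes share a library and, on chromosome 17, a neighbourhood. Ciita had r = 0.85 with the mean of H2-Aa, H2-Ab1, H2-Eb1 and Cd74 over 35 samples and 0.87 after subtracting group means.

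Within a group, then, samples with more Ciita tended to have more H2-Aa, and the diet groups at 24 weeks were offset from each other. The ratio of H2-Aa to Ciita, each per kilobase, was 208 to 344 in SD ResKCs at 24 weeks (median 285) and 107 to 167 in WD ResKCs (median 124), with no overlap. It was 192 to 306 in SD ResKCs at 12 weeks and 176 to 265 in WD ResKCs at 12 weeks, and 111 to 168 in moKCs and 111 to 156 in CLEC4F- macs. All 3 populations of the 24-week WD thus had medians of 124 to 134, and the 3 other ResKC groups of 185 to 285. This ratio was chosen after its parts were seen and carries no test.

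**Figure D5:**
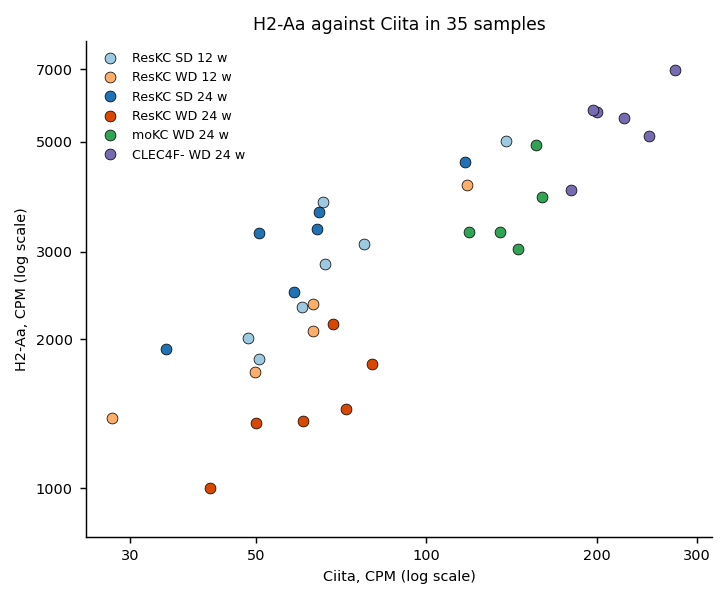
H2-Aa against Ciita, both in CPM on log axes, in all 35 samples, with 1 colour per group. Within each group the points tend to rise together; WD ResKCs at 24 weeks lie below the SD ResKCs at similar Ciita (41.4 to 80 against 34.7 to 117 CPM), and moKCs and CLEC4F- macs continue to the upper right.

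Genes around the class II pathway were read from lists by role, beside the 4.84% of all genes that rose and 3.87% that fell with the diet at 24 weeks. In lists of 3 to 10 genes, 1 gene called is not read as a change of the list. Of 10 factors that meet CIITA at class II promoters (the RFX and NF-Y subunits, coactivators), none changed with the diet at 24 weeks. Of 9 genes of the interferon-gamma axis that drives Ciita, 1 fell, Irf1, an interferon-induced transcription factor, from a mean of 380 to 243 CPM (log2 fold change -0.65, adjusted p = 0.0199, edgeR). Of 9 endosomal processing enzymes, 1 rose, the aspartic protease gene Ctsd (0.60, 0.0119), and 3 fell, among them Ctss, the protease that trims the invariant chain, with all WD samples below all SD samples (-0.32, 0.00893), and Ctsh (-0.29, 0.024). March1, a ubiquitin ligase that removes class II from the surface, fell (-0.26, 0.0317), 1 of 3 genes of class II turnover and display. Of 6 co-stimulatory and co-inhibitory ligands 1 fell, Cd40 (-0.58, 0.0103).

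The class I pathway, which loads peptides from the cytosol, moved the same way with the diet. Of 14 genes 7 fell and none rose, with a median log2 fold change of -0.37 beside 0.00 over all genes. B2m, the class I light chain, was at -0.44 (adjusted p = 0.00044, edgeR), and the immunoproteasome genes Psmb9 at -0.56 (0.00192) and Psmb8 at -0.43 (0.00253). At 12 weeks no gene of these lists was called. Against the 12-week WD group, WD ResKCs at 24 weeks also had less Cd40 (-1.07 on the log2 scale), Psmb9 (-0.49) and March1 (-0.40). The interaction of diet and time was called for March1 (-0.51, adjusted p = 0.032) and Cd40 (-0.91, 0.0341).

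Between populations, the lists are read beside the 16.1% of all genes that were higher and the 17% that were lower in CLEC4F- macs than in ResKCs. Of 14 class I genes, a number near that background was called, 3 higher (H2-Q6 0.80, H2-Q7 0.68 on the log2 scale) and 2 lower (H2-D1 -0.43). Of 9 endosomal enzymes 5 were lower, among them the thiol reductase Ifi30 (-0.88), Ctsl (-0.86) and the asparagine endopeptidase Lgmn (-0.69), and 1 was higher. Ubiquitin ligase genes for class II were lower (March8 -0.78, March1 -0.31). Of the ligands, Pdcd1lg2 (2.10) and Icosl (1.34), which bind PD-1 and ICOS on T cells, were higher and Cd86 (-0.92), a CD28 ligand, was lower. The interferon-gamma axis had 3 of 9 genes lower (Ifngr1 -0.40, Irf2 -0.30, Jak1 -0.24) and none higher, and the CIITA partners 1 of 10 lower (Kat2b -0.63). moKCs against ResKCs differed in few of these genes: Ifi30 was lower (-0.41, adjusted p = 0.0436, edgeR) and Cd40 higher (0.62, 0.0155), with none of the class I genes, CIITA partners or interferon-gamma axis called.

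Outside the pathway, the genes whose log2 CPM over the 35 samples was most like the mean of H2-Aa, H2-Ab1, H2-Eb1 and Cd74 were Pstpip1 (Pearson's r = 0.811), Fxyd5 (0.794), Sirpb1b (0.785), Ms4a6c (0.778), Gm5086 (0.777), Arhgap15 (0.771), Saal1 (0.766), Zfyve9 (0.76), Icosl (0.757) and Dgkg (0.752), all below the likeness of the 4 to each other. Pstpip1 averaged 0.799 CPM in WD ResKCs at 24 weeks, 2.52 in moKCs and 19.5 in CLEC4F- macs. The genes most like Ciita were AU020206 (r = 0.856), Ms4a6b (0.845), Ccl5 (0.844), Slc1a5 (0.84) and Rhoh (0.835). The correlations are over samples that fall into 6 groups and reflect the group means as well as the spread within groups.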

How the data were processed

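Per the paper's methods, sequencing gave single reads of 75 bases, which were mapped to mm10 and counted per gene symbol. The submitters' processing notes name FastQC 0.11.9, HISAT2 2.2.0, SAMtools 1.10 and featureCounts 2.0.0. The deposited values are whole-number counts as the authors made them, with no filter or normalization, in 1 file per sample. Which annotation and strand setting were used, and how reads fitting several genes were treated, is not given in the sources used here, so members with a near-identical copy or an overlapping gene are uncertain. Totals were 11568590 to 15163845 counts per sample, and intervals and floors cover counting error only.

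From the deposited counts, genes were kept when 5 or more samples exceeded 1 CPM (13421), scaled with TMM factors, and fitted in edgeR 4.0.16 (R 4.3.3) with the quasi-likelihood test and 6 group means over all 35 samples, with Benjamini-Hochberg adjustment over all genes tested and calls at an adjusted p under 0.05. CPM printed per sample uses TMM-scaled totals; the filter and the floor of 3 counts use the total counts. SE is the absolute log2 fold change divided by the square root of F. The tests were checked on simulated counts. Samples were grouped by their titles. Replicates of each group differed by more than sampling noise.

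Alternatives were DESeq2 1.42.0, limma-voom (limma 3.58.1), other filters, scalings and limits, the groups compared alone, a replicate block, covariates for immediate-early genes and, chosen after seeing the data, for B cell and DC markers and without CLEC4F- samples 1 and 4, each naming form of the alignment files alone, and leaving out each sample. All 10 members are named. From the other lists, at most 3 called genes per comparison, those with the largest absolute log2 fold change, are named, besides the 10 genes most like the chain genes and the 5 most like Ciita. Markers named singly are those of the sort and those whose level moved with a member. The members and lists were chosen with earlier results of these data known. Transcript lengths are of the longest principal transcript in GENCODE M21, which held 54183 of the 54735 symbols, and promoters are from RefSeq (GRCm38.p6).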

Additional observations from a re-analysis of the deposited data

How the results depend on the processing

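Of 2294 values of single members under alternatives, 2222 kept their side of the threshold, 56 lost their call and 16 gained one. No called value changed sign, and 90 values that were not called did. In the diet comparison at 24 weeks, 6 members were called, 0 with the immediate-early covariate, 3 at an adjusted p under 0.01, and 5 to 7 with 1 sample left out. With the immediate-early covariate fewer genes were called over the whole table too, 252 rising and 224 falling. moKCs against ResKCs had 7 called, 3 and 1 with the first and second naming form alone, 4 with an absolute log2 fold change over 1 also required, and 6 to 7 with 1 sample left out, the one at stake being H2-DMa. CLEC4F- macs against ResKCs had 10 called, 6 with the DC covariate, and 10 whichever sample was left out. CLEC4F- macs against moKCs had 3 called, 6 in a fit of these groups alone (H2-DMb2 and H2-Ob lost, the 3 chain genes, Cd74 and Ciita gained), 0 with the second naming form, 0 with the B cell covariate and 0 with the DC covariate, and 2 to 4 with 1 sample left out. In the other 4 comparisons 0 members were called, also with any 1 sample left out. A naming form alone leaves fewer samples. The causes of the other changes were not tested.

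Groups share replicate numbers, and the labels do not say whether the numbers pair the samples. The main test did not use the numbers. The mean correlation of same-numbered samples' deviations lay between -0.112 and 0.118 over the 7 pairs of groups. With the replicate block 5 members were called between CLEC4F- macs and moKCs instead of 3. In CLEC4F- macs and ResKCs 5 of 6 numbers, and in WD ResKCs at 24 and 12 weeks 4 of 5, matched best with themselves, a hint from the data and not from the design.

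H2-Oa had 3 counts or fewer in 6 of the 29 samples outside CLEC4F- macs, so small differences in H2-Oa among ResKC groups were not detectable at this depth.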

Other observations

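The lists of genes around class II were also read between CLEC4F- macs and moKCs of the WD at 24 weeks. In that comparison 7.09% of all genes were higher in CLEC4F- macs and 9.34% lower. Of 6 ligand genes 1 was higher in CLEC4F- macs, Pdcd1lg2 (1.87 on the log2 scale, adjusted p under 0.05, edgeR), and 1 lower, Cd86 (-0.67). Of 9 endosomal enzymes 3 were lower, Ctsl (-0.79), Lgmn (-0.52) and Ifi30 (-0.48), and 1 was higher. Of 3 genes of class II turnover and display 2 were lower, the ubiquitin ligase genes March8 (-0.62) and March1 (-0.27). The interferon-gamma axis had 2 of 9 genes lower, Irf1 (-0.62) and Ifngr1 (-0.29), and the CIITA partners 1 of 10, Kat2b (-0.62). Of 14 class I genes 2 were lower, H2-T23 (-0.395) and H2-D1 (-0.33), and none higher. None of these is a class II member, and H2-Aa, H2-Ab1 and H2-Eb1 did not pass in the same comparison.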
